A study of Mus musculus with 24 samples.

Results

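The 10 genes described here belong to transforming growth factor beta (TGF-beta) signalling or are known regulators of tumour dormancy. They were chosen by symbol, from the RefSeq transcript assigned to each array probe, and have 14 probes in all. They are 10 of the 45547 names on the array, of which 22881 are gene symbols and the rest are names of probes without a RefSeq match. The genes are the ligands Tgfb1, Tgfb2 and Tgfb3 and their receptors Tgfbr1, Tgfbr2 and Tgfbr3, the secreted ligand Gas6, and the transcription factors Nr2f1, Bhlhe40 and Bhlhe41.

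Total RNA from 7 mouse cell lines was hybridised to 24 one-colour Agilent arrays. B16F1-GFP-M (M, 3 arrays) is the parental line, a mouse melanoma line that carries green fluorescent protein, and B16F1-GFP-D (D, 4 arrays) was derived from it and is labelled dormant. The dormant lines B16F1-GFP-DB#1 (DB#1, 4 arrays), B16F1-GFP-DB#2 (DB#2, 3 arrays) and B16F1-GFP-DB#3 (DB#3, 3 arrays) came, by the study's methods, from a later generation at the brain site. M0 (4 arrays) and J365 (3 arrays) are labelled only as myeloid cells, and they are compared under those names because the labels do not say which leukaemia line each is. By the study's account, dormant cells were isolated from immunotherapy-based residual disease models in syngeneic mice and expanded in culture, so they were dividing when their RNA was taken. The melanoma lines were grown in DMEM with 10% serum, no drug treatment is labelled, and the sources used here do not say whether a line is 1 clone. The labels do not say whether arrays of a line came from separate cultures, and the p-values then measure only the spread between these samples, which may be technical.

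TGF-beta ligands are secreted in a latent complex and signal, once freed, through the kinases Tgfbr2 and Tgfbr1 to Smad transcription factors, while Tgfbr3 (betaglycan) is a co-receptor that presents the ligands, Tgfb2 above all. TGF-beta can arrest the growth of disseminated tumour cells, and Gas6, the ligand of the TAM receptors Tyro3, Axl and Mertk, has been tied to the dormancy of tumour cells in bone marrow. Nr2f1 is an orphan nuclear receptor known as a dormancy regulator, and Bhlhe40 and Bhlhe41 (also called Dec1 and Dec2) are repressors that bind E-boxes in clock genes, with Bhlhe41 described as a quiescence factor downstream of Tgfb2.

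Sequence just before the start site is shown for the genes whose level differed most among the melanoma lines, Gas6 and Tgfb1, and for the genes whose window held an E-box, the element that Bhlhe40 and Bhlhe41 bind. The sequences are RefSeq windows of 250 bases before the start (assembly GRCm38.p6), read 5′ to 3′ on the strand of the gene, and 7 of the 10 genes had such a window. Gas6 lies on chromosome 8 on the minus strand, Tgfb1 on chromosome 7 on the plus strand, and Bhlhe41 (chromosome 6) and Tgfb2 (chromosome 1) on the minus strand. Capitals mark a match on either strand to the E-box CACGTG or to the Smad box CAGACA, and the last 2 lines give the E-box with 12 bases on each side.
Gas6, chr8:13494536-13494785: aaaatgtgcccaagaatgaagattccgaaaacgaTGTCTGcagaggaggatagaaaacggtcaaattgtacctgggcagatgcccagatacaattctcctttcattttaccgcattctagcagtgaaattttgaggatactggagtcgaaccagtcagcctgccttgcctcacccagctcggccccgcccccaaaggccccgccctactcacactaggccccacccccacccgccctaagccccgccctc
Tgfb1, chr7:25686752-25687001: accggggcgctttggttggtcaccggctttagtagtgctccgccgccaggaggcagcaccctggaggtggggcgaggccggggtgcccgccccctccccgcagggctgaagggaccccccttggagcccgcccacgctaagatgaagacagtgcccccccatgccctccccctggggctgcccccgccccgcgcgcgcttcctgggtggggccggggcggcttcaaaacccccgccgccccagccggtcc
Bhlhe41, chr6:145865556-145865585: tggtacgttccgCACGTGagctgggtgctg
Tgfb2, chr1:186706023-186706052: gttgaaggcaaaCACGTGgtttggggagca
The Gas6 window had a GC content of 54.8%, close to the median of 52.4% over all 32851 windows, and held 1 Smad box in reverse orientation, an element found in 17.1% of all windows. In contrast, the Tgfb1 window had a GC content of 75.2% with 21 CG pairs and no match to the E-box, the Smad box or the nuclear receptor half-site AGGTCA (present in 14% of all windows). An E-box occurred in 6.02% of all windows, and among these genes it stood 153 bases before the start of Bhlhe41 and 51 bases before that of Tgfb2. Outside the bases shown, a Smad box also stood 204 bases before the start of Tgfb2 and 203 bases before 1 start of Tgfbr1.

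Values below are normalized log2 signals, that is a probe's log2 intensity from which the 75th percentile over the array was taken away, so that 0 means as bright as that percentile. The number of arrays limits the precision. On 23 arrays, 46.0% to 55.8% of the non-control probes were well above background by the scanner software's mark, but on D replicate 3 it was 90.3%. All 7 melanocyte markers were above background on every melanoma array (mean signal 6.83 to 7.74) and all 8 blood cell markers on every myeloid array (2.17 to 3.41). On D replicate 3 the mean signal of the blood markers was -2.95 with 6 of 8 above background, against -5.20 to -4.45 on the other arrays of D and M, and that of the fibroblast markers was -3.03 with 6 of 7 above background.

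Of the 10 genes, 9 were above background on all 17 melanoma arrays, the exception being Gas6 with 11. On the myeloid arrays 5 genes were above background on all 7 arrays, 4 (Nr2f1, Bhlhe41, Tgfb2 and Gas6) on none, and Tgfbr3 on 3. Among the 5 melanoma lines, an F test across the lines in limma with Benjamini-Hochberg adjustment called 2 of the 10 genes, Gas6 (adjusted p = 8.07e-06) and Tgfb1 (adjusted p = 0.00508), where 7.19% of all 21455 genes tested were called. The remaining 8 genes differed between the highest and lowest melanoma line by 0.22 (Tgfbr2) to 0.98 (Tgfb2) on the log2 scale.

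**Figure D1:**
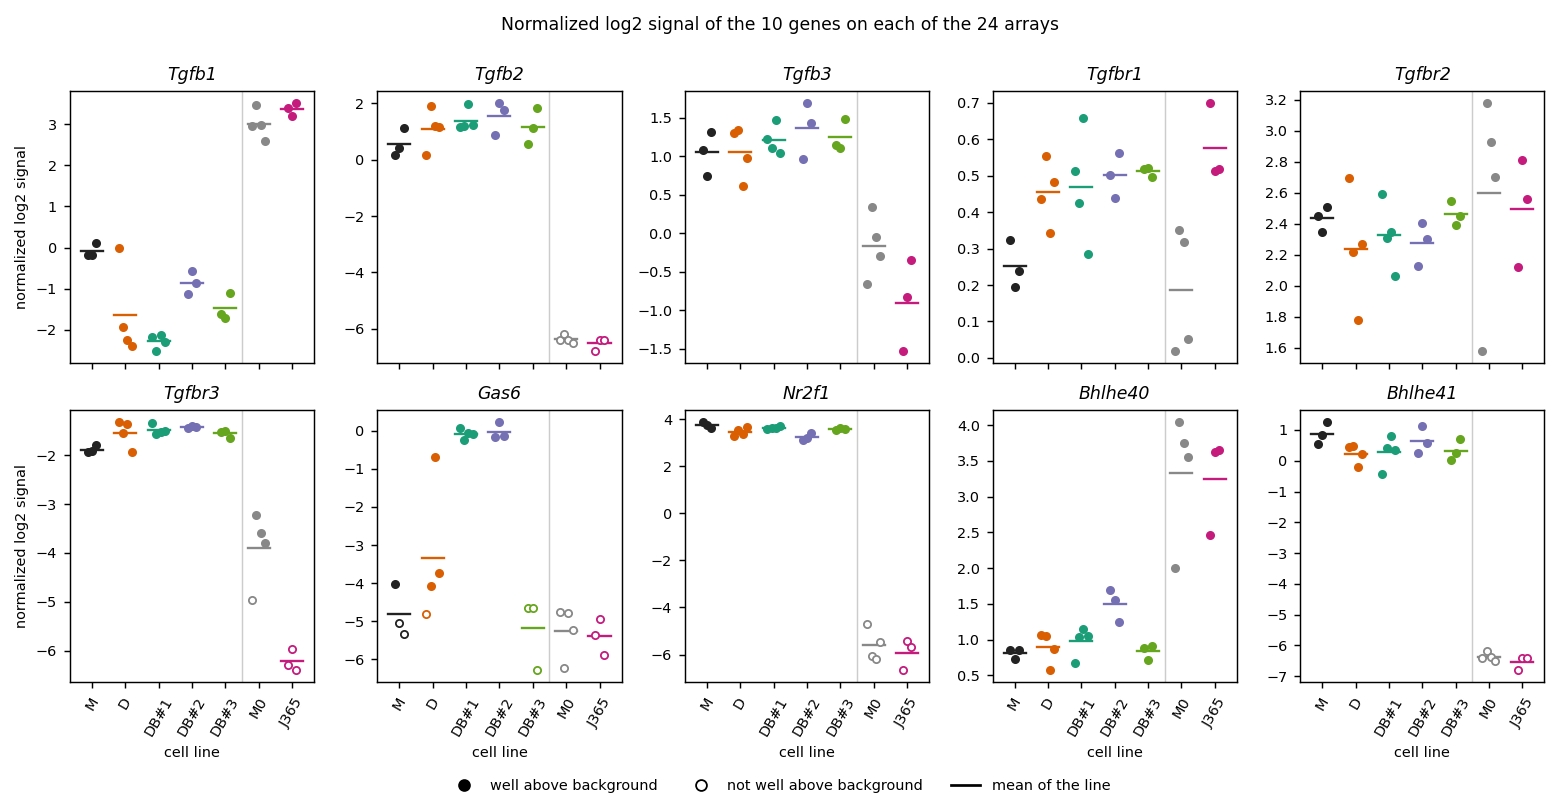
Normalized log2 signal (vertical axis, log2 intensity minus the array's 75th percentile) of the 10 genes, with 1 point per array and the line mean as a bar for the 5 melanoma and 2 myeloid lines; open points were not well above background. Gas6 sits near 0 on all arrays of DB#1 and DB#2 and between -6.27 and -0.68 on those of M, D and DB#3, and Tgfb1 is highest in M among the melanoma lines.

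Against the parental line, the signal of 1 of 9 genes tested was changed in D (2.97% of all 20145 genes tested were called in that comparison), 2 of 10 in DB#1 (3.69% of 20708), 1 of 10 in DB#2 (3.44% of 20951) and 0 of 9 in DB#3 (2.76% of 20581). In DB#3, 2 genes had an unadjusted limma p under 0.05. The median difference over the genes tested was 0.01 in D, 0.16 in DB#1, 0.28 in DB#2 and 0.03 in DB#3, beside medians of -0.01, 0.04, 0.02 and 0.03 over all genes tested. These 4 comparisons use the same 3 arrays of M, so they are not independent of each other.

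**Figure D2:**
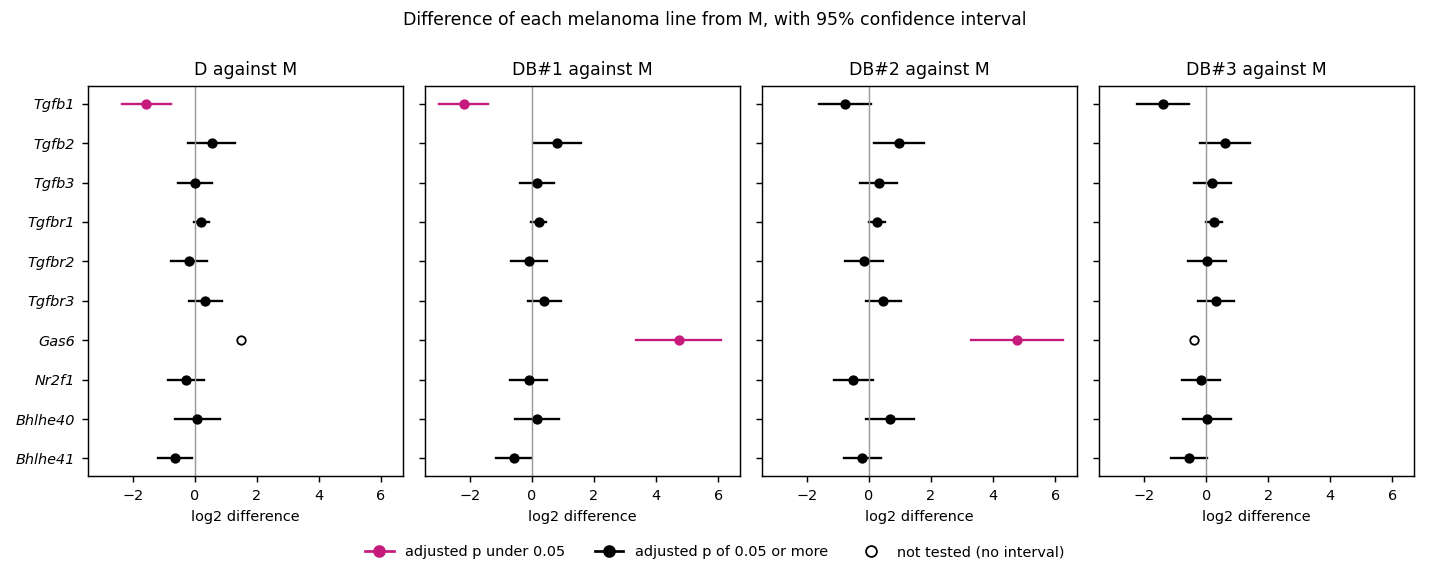
Difference in mean normalized log2 signal of each gene between D, DB#1, DB#2 or DB#3 and M (horizontal axis), with 95% confidence intervals from limma where the gene was tested; magenta marks an adjusted p under 0.05, black a higher one and an open point a gene not tested. Tgfb1 lies below 0 in all 4 lines and Gas6 lies at 4.72 and 4.77 in DB#1 and DB#2, while most other intervals span 0.

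Tgfb1, the most widely expressed of the TGF-beta ligands, was lower than M in D and DB#1 and did not pass the test in DB#2 or DB#3. Its signal on the M arrays was -0.18, -0.18 and 0.11. In D it was -0.00 on replicate 1 and -1.94, -2.25 and -2.39 on replicates 2 to 4, so replicate 1 lay at the level of M while the other 3 arrays lay well below. The 4 arrays of DB#1 read -2.18, -2.50, -2.12 and -2.30, the lowest mean of the 7 lines and without overlap with M. DB#2 read -1.12, -0.58 and -0.86, and DB#3 read -1.60, -1.71 and -1.10, so that all arrays of both lines were below all those of M.

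The fold difference of Tgfb1 was 4.58 lower in DB#1 than in M (log2 difference -2.19, SE 0.38, n = 4 and 3, adjusted p = 8.68e-04 in limma), and within the 3 slides the difference was -2.23, -2.00 and -2.22. In D it was 2.96 lower (log2 difference -1.56, SE 0.38, 95% confidence interval -2.35 to -0.78, adjusted p = 0.0237 in limma). Without D replicate 1 that difference was -2.11 (adjusted p = 2.4e-06), and the call was lost when any 1 of the 3 M arrays or D replicate 2, 3 or 4 was left out (limma adjusted p = 0.0693 to 0.132). DB#3 was 2.62-fold lower than M with a limma adjusted p of 0.0816, which became 0.0227 and passed once slide was a block. DB#2 was 1.71-fold lower with a 95% confidence interval of the log2 difference from -1.62 to 0.07 (limma adjusted p = 0.500). The fit pools the spread over all 7 lines, and the SD was 1.11 in D against 0.16 to 0.36 in the others. Without D replicate 1 both differences were unchanged and passed the test (limma adjusted p = 2.6e-04 in DB#3 and 0.0405 in DB#2). DB#3 passed in 7 of 36 settings and DB#2 in 2. In the direct comparison DB#2 was 2.68-fold above DB#1 (log2 difference 1.42, adjusted p = 0.0297 in limma), with no overlap between their arrays, and Tgfb1 was the 1 gene of 10 called there, where 5.47% of 21065 genes tested were. That call was lost when any 1 of the 7 arrays was left out (limma adjusted p = 0.0537 to 0.151), with quantile scaling (0.210), with no filter on dim probes (0.0891) and with the replicate number as a block (0.0705).

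Of the 10 genes, 4 had more than 1 probe, and for Tgfb1 the probes disagreed on D replicate 1. The dimmer probe read -2.00, -1.80 and -2.38 in M and -3.83, -4.60, -3.24 and -4.11 in D. On this probe all 4 arrays of D were below M, replicate 1 included, although replicates 1 and 2 were not well above background. DB#1 read -3.53 on its first array and was not well above background on the other 3, while DB#2 (-3.07, -3.31 and -2.90) and DB#3 (-3.25, -3.51 and -3.59) lay between DB#1 and M except for the first DB#1 array, which was above DB#3 replicate 5.

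**Figure D3:**
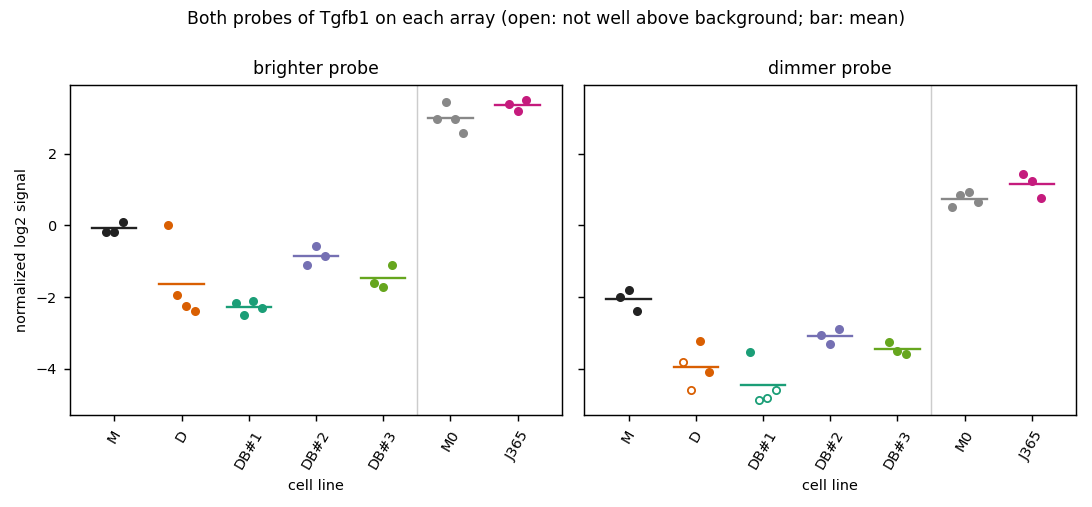
Normalized log2 signal of the brighter (left) and dimmer (right) Tgfb1 probe on each array, grouped by line, with the line mean as a bar and open points not well above background. On the brighter probe D replicate 1 sits at -0.00 among the M arrays, and on the dimmer probe it sits at -3.83, below all of them.

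Tgfb2, the ligand most often linked to dormancy in bone marrow, read 0.18, 0.40 and 1.11 in M. D read 0.17, 1.90, 1.19 and 1.17, so that D replicate 1 was at the bottom of the M range and the other arrays were above it. All arrays of DB#1 (1.14, 1.20, 1.96 and 1.23) were above those of M, whereas DB#2 (0.87, 2.01 and 1.75) and DB#3 (0.54, 1.13 and 1.83) overlapped with M. None of these differences passed the adjusted test: the log2 difference from M was 0.82 in DB#1 (SE 0.36, limma adjusted p = 0.319), 0.98 in DB#2 (limma adjusted p = 0.248), 0.60 in DB#3 and 0.54 in D. The second Tgfb2 probe read -1.21, -0.85 and -0.87 in M, and every array of DB#1 (-0.33 to 0.04), DB#2 (-0.75 to 0.31) and DB#3 (-0.70 to -0.33) was above them on it. On that probe too D replicate 1 was the lowest of its line, at -1.97, with the other D arrays at -0.24 to 0.02. Tgfb3 varied less, with line means between 1.05 ± 0.29 (SD, n = 3) in M and 1.36 ± 0.37 (SD, n = 3) in DB#2 and overlap between all melanoma lines.

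The signalling receptors differed little between the melanoma lines. Tgfbr1, the type I receptor kinase, read 0.32, 0.19 and 0.24 in M, and its mean was 0.45 ± 0.09 in D (SD, n = 4), 0.47 ± 0.16 in DB#1 (n = 4), 0.50 ± 0.06 in DB#2 (n = 3) and 0.51 ± 0.01 in DB#3 (n = 3). The arrays of D, DB#2 and DB#3 did not overlap with M, but the log2 differences of 0.20 to 0.26 did not pass the test (limma adjusted p = 0.453 to 0.568). On the dimmer Tgfbr1 probe the difference from M was 0.19 in D, -0.33 in DB#1, 0.03 in DB#2 and -0.03 in DB#3, so the probes did not share a direction in DB#1 or DB#3. Tgfbr2, the type II kinase that binds ligand first, stood between 1.78 and 2.70 on all melanoma arrays, and its line means spanned 0.22.

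Tgfbr3 read -1.94, -1.90 and -1.80 in M, and every array of DB#1 (-1.56 to -1.33), DB#2 (-1.43 to -1.40) and DB#3 (-1.64 to -1.49) was above them. D read -1.32, -1.54, -1.36 and -1.93, and its replicate 4 lay within the M range. The differences from M of 0.33 to 0.47 did not pass the test (limma adjusted p = 0.596 to 0.898), with 95% confidence intervals that reached from -0.25 to 1.04.

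Gas6 separated the melanoma lines most. In M it read -4.02, -5.04 and -5.35, and only the first array was well above background. DB#1 read 0.08, -0.24, -0.07 and -0.08 and DB#2 read -0.15, 0.22 and -0.15 and all 7 arrays were above background. DB#3 read -4.65, -4.64 and -6.27 and was not well above background on any array. Thus the lines labelled as brain-site generations fell on both sides: DB#1 and DB#2 were high, and DB#3 was not well above background on any array.

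With M well above background on 1 of its 3 arrays, the measured signal of Gas6 in DB#1 was 26.4-fold that of M (log2 difference 4.72, 95% confidence interval 3.34 to 6.10, n = 4 and 3, adjusted p = 7.52e-05 in limma), and in DB#2 it was 27.3-fold (4.77, 3.30 to 6.25, n = 3 and 3, adjusted p = 1.75e-04 in limma). Within the slides the difference from M was 3.86 to 5.28 in DB#1 and 3.87 to 5.57 in DB#2. These sizes depend on how dim arrays are treated: with the M arrays not above background raised to their lowest signal well above background the log2 differences were 4.16 and 4.21, and with normexp background correction they were 2.50 and 2.57 and both remained past the threshold. Compared with DB#3, in which Gas6 had only an upper bound, it was at least 18.5-fold higher in DB#1 (adjusted p = 2.05e-04 in limma) and at least 19.2-fold higher in DB#2 (adjusted p = 6.33e-05 in limma). It was the 1 gene of 10 called in DB#1 against DB#3, where 0.229% of 20556 genes tested were called, and in DB#2 against DB#3, where 4.44% of 20978 were. Such a bound sets the bright line's mean against, on each array, the lowest signal that was well above background there or the probe's own signal, whichever was higher, and it holds for this background correction: with normexp the log2 differences from DB#3 were 2.55 in DB#1 and 2.63 in DB#2, smaller than these bounds and still called. DB#1 and DB#2 differed by 0.05, with a 95% confidence interval from -1.33 to 1.43 (adjusted p = 0.995 in limma).

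D was uneven for Gas6. Its arrays read -4.81, -4.08, -0.68 and -3.73, so replicate 3 stood near DB#1 and DB#2 while the other 3 were in or just above the range of M. Replicate 3 is the array on which 90.3% of probes were above background. On it the mean signal of every list of markers of other cell types was above that on the other D arrays: besides blood and fibroblasts, microglia (-3.16 against -5.76 to -4.92), endothelium (-3.91 against -5.91 to -5.25) and astrocytes (-1.75 against -2.81 to -2.69). That of the melanocyte markers was the lowest of the D arrays, at 6.83. The part of these in the Gas6 signal was not tested. Against D, Gas6 was 9.52-fold higher in DB#1 (log2 difference 3.25, adjusted p = 0.0108 in limma) and 9.85-fold higher in DB#2 (3.30, adjusted p = 0.00316 in limma), and on the slide that held D replicate 3 these differences were 0.77 and 0.53. It was the 1 gene of 10 called in both comparisons, where 0.475% of 20203 and 6.34% of 20651 genes tested were called. Without D replicate 3, DB#2 was 4.18 above D. The call in DB#1 against D was lost without D replicate 1 or 2 (limma adjusted p = 0.0508 and 0.0581), and in both comparisons it was lost when only the arrays of the compared lines were fitted (0.384 and 0.158). No gene of 9 was called in DB#3 against D, where 0.369% of 20033 genes tested were called, and none had an unadjusted limma p under 0.05. Against the mean of DB#1 and DB#3, DB#2 was higher in Gas6 by 2.60 (adjusted p = 0.00903 in limma). DB#2 differed from DB#1 by only 0.05, so the difference came from DB#3, which was not well above background on any array. Gas6 was again the 1 gene of 10 called (7.14% of 21263 genes tested). That call was lost without DB#2 replicate 2 (limma adjusted p = 0.0612) and with the replicate number as a block (limma adjusted p = 0.0703).

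Fibroblasts also make Gas6. Their markers had mean signals of -4.95 to -4.34 in DB#1 and -4.36 to -4.16 in DB#2, against -4.80 to -4.51 in M and -5.28 to -4.98 in DB#3. The mean includes Dcn, which alone went from -6.29 in M to -1.32 in DB#2. Of the 7 markers, 1 was above background on all arrays of DB#1 and 3 on all arrays of DB#2, against 2 in M. Microglial markers had means of -5.64 to -4.92 in DB#1 and -5.06 to -4.80 in DB#2, against -5.18 to -4.71 in M. The part of other cells in the Gas6 signal was not tested.

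Of the receptors of Gas6, Tyro3 was called against M, Axl was not, and Mertk was too dim to be tested. Tyro3 was above background on all melanoma arrays, with a mean of 2.95 ± 0.19 in M (SD, n = 3), 3.40 ± 0.26 in D (n = 4), 3.99 ± 0.07 in DB#1 (n = 4), 3.55 ± 0.19 in DB#2 (n = 3) and 3.97 ± 0.04 in DB#3 (n = 3). It rose against M in all 3 DB lines, by 1.04 in DB#1, 0.60 in DB#2 and 1.02 in DB#3 (adjusted p = 1.13e-04, 0.0416 and 3.97e-04 in limma), including DB#3, where Gas6 was not above background. Axl had means of 1.02 ± 0.34 in M (SD, n = 3), -0.13 ± 1.15 in D (n = 4) and -0.24 ± 0.78 in DB#1 (n = 4), and its differences of -1.14 and -1.26 did not pass the test (limma adjusted p = 0.268 and 0.176). Mertk was not well above background on any array of M, DB#1 or DB#3, and was so on 3 of 4 arrays of D and 1 of 3 of DB#2. Pros1, the other TAM ligand, was not called between any melanoma line and M.

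**Figure D4:**
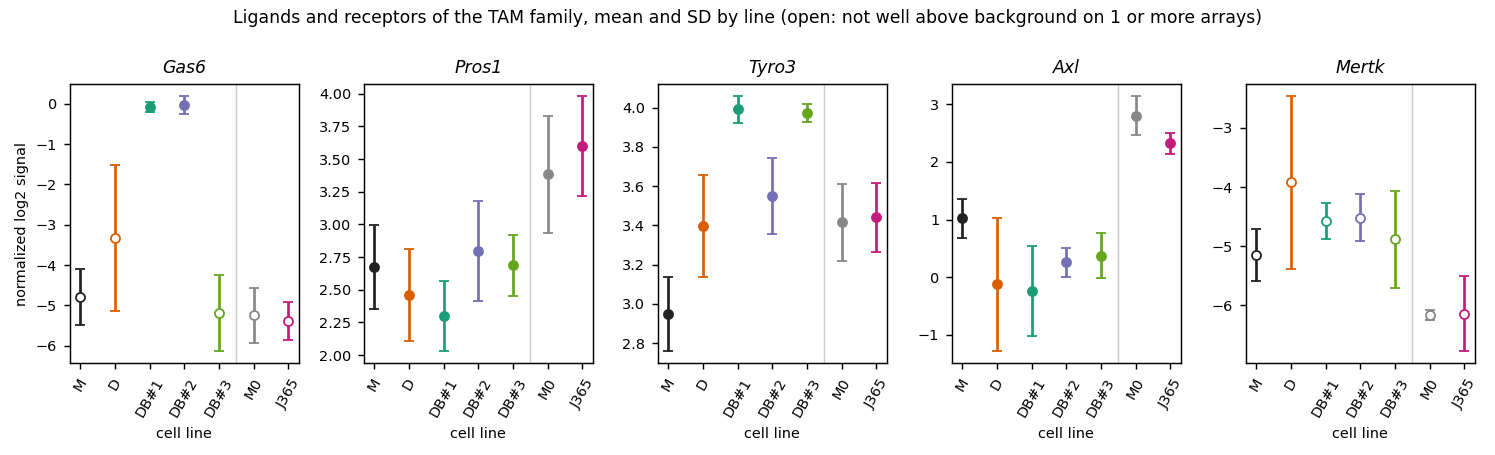
Normalized log2 signal of Gas6, of its receptors Tyro3, Axl and Mertk, and of the ligand Pros1, with 1 mark per line for the mean and bars for 1 SD over 3 or 4 arrays; open marks stand for lines not well above background on 1 or more arrays. Tyro3 is above M in DB#1, DB#2 and DB#3, while Gas6 is high in DB#1 and DB#2 alone among the 3.

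None of the 5 nearest genes tested on each side of Gas6 or Tgfb1 was called against M. Of all genes tested, 2.97% were called in D, 3.69% in DB#1, 3.44% in DB#2 and 2.76% in DB#3. At such shares 0 of 10 is not read as a result about the neighbours. Of the 10 nearest protein-coding genes tested around Gas6, 5 on each side, 0 were called against M in D, DB#1, DB#2 or DB#3 by limma, and their differences ran from -0.26 to 0.58 in DB#1 and from -0.36 to 0.36 in DB#2, beside 4.72 and 4.77 for Gas6. At an unadjusted limma p under 0.05 there were 1 in D, 2 in DB#1, 2 in DB#2 and 0 in DB#3. Around Tgfb1, 0 of 10 were called by limma, with 2 in D, 2 in DB#1, 1 in DB#2 and 0 in DB#3 at an unadjusted p under 0.05. Their differences ran from -1.26 to 0.34 in DB#1 and from -1.14 to 0.14 in D, and the lowest in both was Axl, the receptor of Gas6, which is a near neighbour of Tgfb1 on chromosome 7.

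**Figure D5:**
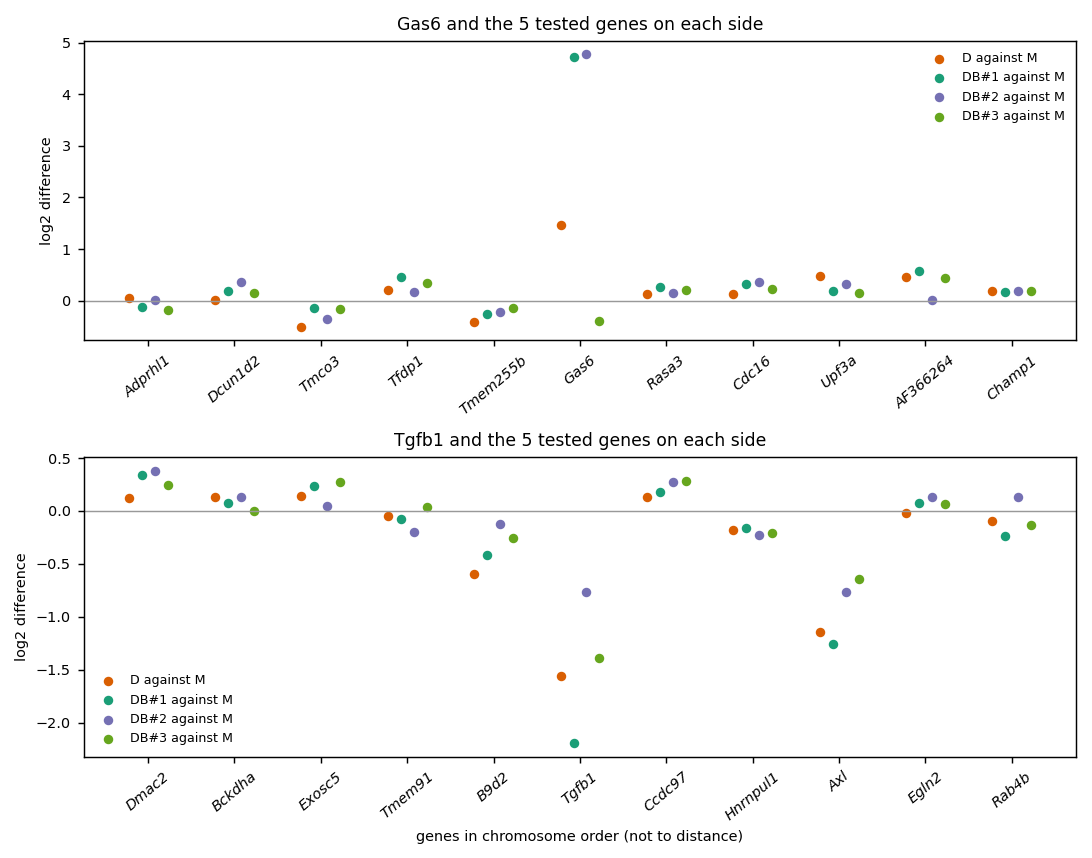
Log2 difference from M (vertical axis) of Gas6 (upper panel) and Tgfb1 (lower panel), each in the middle of the 5 tested protein-coding genes on either side, in chromosome order and not to distance (horizontal axis), with 1 point each for D, DB#1, DB#2 and DB#3. Gas6 stands at 4.72 and 4.77 in DB#1 and DB#2, where its neighbours lie between -0.36 and 0.58, and the lowest neighbour of Tgfb1 is Axl, at -1.14 in D and -1.26 in DB#1.

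Nr2f1 was among the steadier genes in the melanoma lines. It read 3.87, 3.74 and 3.63 in M and 3.12, 3.20 and 3.40 in DB#2, which was below M without overlap. D read 3.31 to 3.67 and DB#1 3.59 to 3.71, and both overlapped with M, whereas DB#3 at 3.54 to 3.61 lay just under the lowest M array. The difference of -0.51 in DB#2 did not pass the test (SE 0.30, limma adjusted p = 0.591), nor did those of -0.28 in D, -0.11 in DB#1 and -0.17 in DB#3. The SE pools the spread over all 7 lines. The SD was 0.69 in M0 and 0.65 in J365, against 0.03 to 0.17 in the melanoma lines. DB#2 against M passed in 0 of 36 settings. With only the arrays compared, DB#2 was below the mean of DB#1 and DB#3 by 0.37 and passed (limma adjusted p = 0.0222), in 1 of 36 settings. The 95% confidence intervals against M reached no lower than -1.13 and no higher than 0.48.

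Bhlhe40 was highest in DB#2, where it read 1.70, 1.55 and 1.25 against 0.85, 0.73 and 0.85 in M. No array of DB#2 overlapped with any of the other melanoma lines, whose values ran from 0.58 to 1.14. Yet the difference of 0.69 from M did not pass the test (95% confidence interval -0.09 to 1.46, limma adjusted p = 0.522). Its SE pools the spread over all lines. The SD was 0.91 in M0 and 0.68 in J365, against 0.07 to 0.23 in the melanoma lines. The difference was unchanged and passed without the myeloid arrays that have no replicate number (limma adjusted p = 0.0229). That was 1 of 36 settings, chosen after seeing the data. With only the arrays of DB#2 and M it did not pass (limma adjusted p = 0.102). Bhlhe41 moved the other way in D: M read 0.53, 0.82 and 1.25 and D read 0.46, 0.47, -0.22 and 0.22. These arrays did not overlap, but the difference of -0.63 had an adjusted p of 0.305 in limma. With slide as a block it was -0.72 and passed the test (limma adjusted p = 0.0155), and within the slides it was -0.78, -1.04 and -0.31. The second Bhlhe41 probe read -1.55 to -1.03 in M and -1.53, -0.52, -0.46 and -1.30 in D, and on it 2 arrays of D were above M, so the probes disagreed on the direction.

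Between melanoma and myeloid cells, 7 of 9 genes tested differed between M and M0 in limma, 5 higher and 2 lower in M, in a comparison where 58.5% of all 22426 genes tested were called. The median difference over these genes was 1.21, against -0.13 over all genes tested. Nr2f1 was at least 228-fold, Bhlhe41 at least 31.0-fold and Tgfb2 at least 25.2-fold higher in M, since none of the 3 was well above background on any myeloid array. These bounds hold for the background correction used, and with normexp the log2 differences were smaller than them, at 5.94, 3.56 and 3.14, and still called. Tgfbr3 was 4.04-fold and Tgfb3 2.32-fold higher in M (adjusted p = 1.16e-06 and 6.1e-04 in limma). The 2 genes with the opposite direction were Tgfb1, which was 8.46-fold lower in M than in M0, and Bhlhe40, which was 5.74-fold lower (adjusted p = 6.1e-07 and 2.8e-06 in limma). Tgfbr1 and Tgfbr2 did not pass the test, with differences of 0.07 (95% confidence interval -0.18 to 0.31) and -0.16 (-0.74 to 0.42).

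Between the myeloid lines, 0 of 5 genes tested were called in J365 against M0 by limma, where 1.47% of 20660 genes tested were, and 2 had an unadjusted p under 0.05. These were Tgfb3, with a difference of -0.74 (limma adjusted p = 0.306), and Tgfbr1, with 0.39 (limma adjusted p = 0.131), whose arrays read 0.02, 0.35, 0.32 and 0.05 in M0 and 0.70, 0.51 and 0.52 in J365 without overlap. Tgfb1 read 2.59 to 3.46 in M0 and 3.20 to 3.51 in J365 and overlapped. Tgfbr3 was above background on 3 of 4 arrays of M0 (mean -3.89 ± 0.75, SD, n = 4) and on none of J365, where it was at least 1.26-fold lower.

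The difference of D from M was set against that of J365 from M0 in 1 contrast, which called 1 of 9 genes tested, beside 2.08% of 23120. Tgfbr3 was the gene called, with a fitted difference of differences of 2.67 (SE 0.37, adjusted p = 1.42e-04 in limma). Its size is not measured, since no array of J365 was well above background. D differed from M by 0.34 and J365 from M0 by -2.33, a comparison in which Tgfbr3 was not tested. With the myeloid arrays not above background raised to their lowest signal well above background the contrast was 0.88. With normexp it was 0.62 and the call was lost (limma adjusted p = 0.175). For Tgfb1 the contrast was -1.94 (limma adjusted p = 0.0765), and with normexp it was -1.57 (limma adjusted p = 0.0294).

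The genes around these 10 in their pathways were followed in 10 lists that hold 158 genes measured on the array. Of those tested, 2 of 102 were called in D against M (0 higher, 2 lower), 10 of 107 in DB#1 (6 higher, 4 lower), 11 of 110 in DB#2 (8 higher, 3 lower) and 7 of 106 in DB#3 (4 higher, 3 lower). These are 1.96%, 9.35%, 10.0% and 6.6% of the listed genes tested, beside 2.97%, 3.69%, 3.44% and 2.76% of all genes tested. The median difference of the listed genes was -0.09, -0.00, -0.09 and -0.00 in the 4 lines, beside -0.01, 0.04, 0.02 and 0.03 over all genes. Between DB#1 and D limma called 0 of 105, and between DB#3 and D 0 of 105, with 8 and 7 genes at an unadjusted p under 0.05. Between M and M0, 92 of 118 were called (78.0%), where 58.5% of all 22426 genes tested were.

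In TGF-beta signalling itself, 1 gene of 3 lists passed the test against M. No gene of TGF-beta latency and activation (7 or 8 tested) and none of the Smads and their nuclear partners (12 or 13 tested) was called by limma in any of the 4 lines, where 1 gene of each list had an unadjusted p under 0.05 in 1 line. Among the target genes of TGF-beta and BMP, 1 of 14 was called, in DB#2. At an unadjusted limma p under 0.05 there were 6 of 13 in DB#3 and 2 in each of D, DB#1 and DB#2. Over all listed genes tested these counts were 15 of 102 in D, 22 of 107 in DB#1, 19 of 110 in DB#2 and 19 of 106 in DB#3. The share over all genes at that unadjusted threshold is not given here, so the 6 of 13 is not read as a result. The gene called was Pmepa1, which is induced by TGF-beta and restrains Smad signalling, with a mean of 1.49 ± 0.42 (SD, n = 3) in M and 0.65 ± 0.34 (SD, n = 3) in DB#2, a difference of -0.84 (adjusted p = 0.0364 in limma). It was also lower in DB#2 than in D (-1.27), DB#1 (-1.18) and DB#3 (-1.39). The target genes did not all go that way. In DB#2 against D limma called 1 of 14, lower (6.34% of all genes tested were called). Against DB#1 it called 1 higher and 1 lower (5.47% of all genes), and against DB#3 2 higher and 1 lower (4.44%). Thbs1, a protein that frees latent TGF-beta, was lower in DB#2 than in D by 1.40 (adjusted p = 0.0347 in limma).

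Single inhibitors and superfamily members rose from levels at or near background. Dcn, a proteoglycan that binds TGF-beta, was at least 7.87-fold higher in DB#2 than in M, where it was not well above background. Its 3 arrays in DB#2 ran from -2.39 to -0.19 (SD 1.10). Dcn is also 1 of the 7 fibroblast markers, whose mean signals were -4.36 to -4.16 in DB#2 and -4.80 to -4.51 in M. That mean includes Dcn itself, at -6.29 in M and -1.32 in DB#2, so it does not show how the other markers moved. The part of other cells in the Dcn signal was not tested. Fstl3, which binds activin, was 3.15 higher on the log2 scale in DB#1 (adjusted p = 0.0154 in limma), with M above background on 1 of 3 arrays. Amhr2, the receptor of anti-Müllerian hormone, was at least 4.81-fold higher in DB#1, at least 5.42-fold in DB#2 and at least 3.64-fold in DB#3. Gdf15, a stress-induced ligand, was at least 2.41-fold higher in DB#1 and at least 3.10-fold in DB#2.

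In the retinoid and clock lists a few genes passed the test. Rarb, a retinoic acid receptor, was higher in DB#2 than in M by 1.05 (adjusted p = 0.0204 in limma) and than in D by 1.86. Among 14 clock genes tested, Cry2, a repressor of the clock, rose by 0.54 in DB#1, 0.61 in DB#2 and 0.54 in DB#3. None of the 14 was called in D by limma, and 3 had an unadjusted p under 0.05 there. In J365 against M0, Arntl2 was lower by 3.25 and Nr1d2 higher by 0.53.

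The list of other dormancy genes held both calls made by limma in D, and all changes named from it passed the test. Cd82, a metastasis suppressor, fell by 1.85 in D, by 2.26 in DB#1 and by 1.57 in DB#3, and in DB#2 its mean of 3.55 ± 0.12 (SD, n = 3) was close to that of M at 3.61 ± 0.21 (SD, n = 3). Mapk12, a p38 kinase, fell by 0.76 in D, 0.77 in DB#1 and 0.82 in DB#3. Lifr, the receptor of leukaemia inhibitory factor and a dormancy receptor in breast cancer cells, was not above background in M and was at least 2.49-fold higher in DB#1, at least 1.40-fold in DB#2 and at least 2.47-fold in DB#3. In DB#2, Mapk13 rose by 1.49 and Plaur, the urokinase receptor, fell by 0.97.

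For each of the 10 genes the most similar profiles across the 17 melanoma arrays were found by Pearson correlation among 13231 genes, as a description, since arrays of a line share their line and slide. Tgfb1 was closest to Abca5 (r = 0.946), Cd59a (0.942) and Adcy9 (0.929), and Gas6 to Sult6b1 (0.892), Tmem59l (0.843) and Spint1 (0.838). Bhlhe40 was closest to Gm829 (0.959), Bhlhe41 to Nrp1 (0.939), Nr2f1 to Sntb2 (0.924) and Tgfbr3 to Pstpip1 (0.864). Tgfbr1 had the weakest best match, Cry2 (0.830), a gene of the clock list, and Tgfb2, Tgfb3 and Tgfbr2 were closest to 2610035D17Rik (0.912), Pkp4 (0.936) and Uckl1 (0.945).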

How the data were processed

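Total RNA of 7 mouse lines was measured on 24 one-colour Agilent arrays, 8 on each of 3 slides, with every line on each slide. The authors deposited, for each array, a scanner table with the intensity of each spot, made with Agilent Feature Extraction 10.7.3.1, with background already corrected and no scaling between arrays; their series table holds the same intensity values and served as the setting without scaling. The array design refers to mm9. Control spots and outlier spots were left out, spots of a probe averaged, and log2 intensity reduced by the array's 75th percentile. Probes were named from their accession through RefSeq (GRCm38.p6), and the brightest probe stood for a gene. Probes without a match kept their deposited name and count among all genes tested. Probe sequences were not used here.

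The lines were compared with limma 3.58.1 in R 4.3.3 (lmFit and eBayes, all 24 arrays in 1 fit with each line as a level, leaving 17 residual degrees of freedom). A gene was tested where it was well above background on every array of at least 1 line compared, and called at a Benjamini-Hochberg adjusted p under 0.05 over all genes tested. Counts at an unadjusted p under 0.05 are given without the share over all genes, so they are not read as results. Signed differences are first line minus second on the log2 scale. The steps were tested on simulated data. Tables and plots were made with Python 3.11.15, numpy 2.4.6, pandas 2.3.3 and matplotlib 3.10.9.

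The 10 genes, the 10 lists and the marker lists were chosen with earlier results of these data known. Of each list, the text names at most 2 genes with the largest rise and 2 with the largest fall among those called in a comparison, besides all 4 TAM genes, and for each of the 10 genes the 3 most similar profiles were taken; 158 of 159 listed genes had a probe. Alternatives were the percentile over detected probes, quantile scaling, no scaling, normexp (offset 50, on the median and background median signals), the mean over probes, no filter on dim probes, only the arrays of the lines compared, slide or replicate number as a block, and leaving out arrays. The comparisons among DB#1, DB#2 and DB#3 in pairs were added after the data were seen. Some genes of the lists that passed the test are not reported here.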

Additional observations from a re-analysis of the deposited data

Results flagged for a closer look

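Tgfb2 in DB#1 replicate 3 stood apart from the other arrays of its line, at 1.96 against 1.14 to 1.23 (gap over range 0.891, above Dixon's 95% value of 0.829 for 4 arrays). It was the 1 case among 26 pairs of gene and line with 4 arrays or more, and chance alone gives about 1 in 20. That array was on slide 1, and the slide 1 arrays of M, DB#2 and DB#3 were also the highest of their lines for Tgfb2, at 1.11, 2.01 and 1.83, while the 2 of D read 0.17 and 1.90, the lowest and highest of D.

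Tgfbr3 was called in the contrast of D minus M against J365 minus M0, but the size of that contrast is not measured. The fitted value was 2.67 on the log2 scale (adjusted p = 1.42e-04 in limma). D differed from M by 0.34 and J365 from M0 by -2.33, and no array of J365 was well above background. Tgfbr3 was not tested in J365 against M0, so it entered the contrast through the melanoma lines. With normexp the contrast was 0.62 and the call was lost (limma adjusted p = 0.175).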

How the results depend on the processing

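Over 5040 results for single genes under 36 settings, 24 of which left out 1 array, 4973 kept their side of the threshold, 28 lost a call and 39 gained one. The sign changed in 153, none of them called under either setting (Tgfb3 in D against M, for example, ranged from -0.14 to 0.19). The number of the 10 genes called was more sensitive, and the cause was not tested. In D against M it was 1, but 0 with no filter on dim probes, 0 when only the arrays of M and D were fitted (Tgfb1 limma adjusted p = 0.499) and 2 with slide as a block (Bhlhe41 and Tgfb1), and 0 to 1 when 1 array was left out. In DB#3 against M it was 0, and 1 (Tgfb1) with the percentile over detected probes, without scaling, with the mean over probes, with only the arrays compared, with slide as a block or without D replicates 1 and 3, and 0 to 1 on leaving out 1 array. In DB#2 against M (1) it was 2 without the arrays that have no number (Bhlhe40) or without D replicates 1 and 3 (Tgfb1). It was 1 to 2 on leaving out 1 array. In DB#1 against D (1) it was 0 without scaling or with only the arrays compared, and 0 to 1 on leaving out 1 array. In DB#2 against D (1) it was 0 with only the arrays compared, 2 without the unnumbered arrays or without D replicates 1 and 3, and 1 to 2 on leaving out 1 array. In DB#2 against the mean of DB#1 and DB#3 (1) it was 2 with the percentile over detected probes, the mean over probes, slide as a block, the unnumbered arrays left out or D replicates 1 and 3 left out, 3 without scaling, 4 with only the arrays compared, and 0 to 2 on leaving out 1 array. In J365 against M0 (0) it was 1 with quantile scaling (Tgfbr1), no filter on dim probes (Tgfbr3), slide as a block (Tgfb3) or without the unnumbered arrays (Tgfbr3), and 0 to 1 on leaving out 1 array. In D minus M against J365 minus M0 (1) it was 2, with Tgfb1 added, under the percentile over detected probes, no scaling, the mean over probes, slide as a block or without D replicates 1 and 3, and 1 to 2 on leaving out 1 array. In DB#2 against DB#3 (1) it was 2 without the unnumbered arrays, and in DB#2 against DB#1 (1) it was 0 with quantile scaling or no filter on dim probes and 0 to 1 on leaving out 1 array. The F test among melanoma lines (2) kept 1 (Gas6) with quantile scaling. Leaving out D replicates 1 and 3 together, leaving out the unnumbered arrays and the pairwise comparisons of DB lines were chosen after seeing the data.

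Replicate numbers did not pair the arrays: of 49 same-numbered pairs 23 had deviations that correlated above 0.1 (median 0.042), against a median of 0.526 over 81 same-slide pairs. The main fit had no term for slide, so what arrays of a slide share stayed in the spread behind its p-values. With the replicate number as a block, 0 genes were called in D against M (Tgfb1 -1.45, limma adjusted p = 0.0608), 0 in DB#2 against the mean of DB#1 and DB#3 (Gas6 2.34, limma adjusted p = 0.0703) and 0 in DB#2 against DB#1.

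Counts over all genes moved by more than 1.5 times in most comparisons. D against M ranged from 135 (only the arrays compared) to 1083 (slide as a block) around 598, DB#1 against M from 518 to 1201 around 765, DB#2 against M from 452 to 1255 around 720 and DB#3 against M from 403 to 866 around 569. DB#1 against D ranged from 34 to 125 around 96, DB#2 against D from 300 to 2367 around 1310, DB#3 against D from 11 to 118 around 74 and DB#2 against the mean of DB#1 and DB#3 from 843 to 2901 around 1519. J365 against M0 ranged from 221 to 639 around 303, D minus M against J365 minus M0 from 275 to 765 around 480, DB#1 against DB#3 from 31 to 87 around 47, DB#2 against DB#3 from 568 to 1668 around 931, DB#2 against DB#1 from 629 to 1965 around 1152 and the F test from 1089 to 2445 around 1543. Without scaling, the median of all genes moved to 0.17 in D against M (407 higher and 140 lower, against 278 and 320) and to 0.25 in DB#2 against M (1122 and 133, against 451 and 269).

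Signals near background limit the folds of Gas6 and of Tgfbr3 in the myeloid lines, whose size moved with the background correction (Gas6 in DB#1 against M, 4.72 and with normexp 2.50).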
